A study of Mus musculus with 8 samples.

Results

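Red cell precursors in the bone marrow (BM) were followed through 36 listed genes for erythroid transcription factors, erythropoietin and iron uptake receptors, globins, heme synthesis enzymes and red cell membrane proteins. Their symbols were matched to the identifiers of the count files, and 35 of the 36 matched 1 identifier among the 41214 genes counted. Ahsp, the globin chaperone, was not analysed here. Whole BM cells of 8 mice on the C57Bl6 strain were profiled by RNA-seq, with 2 mice in each of 4 groups. KD mice carry human GFI1 in place of mouse Gfi1 at a reduced level of expression, because the allele keeps a floxed neo cassette, and KO mice lack Gfi1, a transcriptional repressor of blood cells. Mice of the young KD group were 39 and 42 days of age and those of the young KO group 48 and 44 days. Old KO mice were 158 and 101 days old and the sick KD mice 187 and 78 days. No treatment is given in the labels. The study describes the sick KD mice as having a myeloproliferative neoplasm, their labels give AML, and the labels of the other 6 mice give no AML. No wild-type mouse is among the 8, so each comparison is between mice with altered Gfi1. Sick KD mice differed from young KD mice in age as well as disease, and from old KO mice in genotype as well as disease, and these cannot be told apart.

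Erythroid precursors arise from progenitors under erythropoietin, which acts through the receptor Epor. Gata1, Tal1 and Klf1 are transcription factors that switch on globin, heme and membrane genes in these cells, with GATA factors binding AGATAA-like and Klf1 binding CACC-like sequences. Heme is made from glycine and succinyl-CoA in a chain of enzymes that begins with Alas2 in the mitochondrion and ends with insertion of iron by Fech. As the precursors mature they build a spectrin and ankyrin skeleton under the membrane, fill with hemoglobin and lose the nucleus.

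Promoters were looked up because the members moved together between groups. RefSeq start sites on GRCm38.p6 were found for 27 of the 35 members, giving 33 promoters, and the 250 bases before each start were read. The letters AGATAA, on either strand, were present in 8 of 33 member promoters (24.2%) and in 9.99% of 32851 promoters of all genes. CCNCNCCC, the CACC-like letters on either strand, was present in 18 of 33 (54.5%) against 45.9% of all. Both were present in 3 of 33 (9.09%) against 2.78%, and those 3 were the promoters of Alas2, Epor and Hbb-bs. These 3 are shown with Hbb-bt and Hba-a1, adult globin genes whose promoters held CCNCNCCC alone and neither of the searched letters, respectively. Each is given in the direction of transcription from 5′ to 3′. They lie at chrX:150547167-150547416 on the plus strand, chr9:21963577-21963826 on the minus strand, chr7:103827929-103828178 on the minus strand, chr7:103813924-103814173 on the minus strand and chr11:32283422-32283671 on the plus strand. Capitals mark AGATAA or its reverse complement TTATCT, and CCNCNCCC or its reverse complement GGGNGNGG, where neighbouring matches can overlap.
Alas2: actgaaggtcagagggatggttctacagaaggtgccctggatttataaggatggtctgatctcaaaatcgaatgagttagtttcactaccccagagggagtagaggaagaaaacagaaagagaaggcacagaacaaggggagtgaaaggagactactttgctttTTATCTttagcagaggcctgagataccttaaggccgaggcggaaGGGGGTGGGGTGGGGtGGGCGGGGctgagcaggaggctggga
Epor: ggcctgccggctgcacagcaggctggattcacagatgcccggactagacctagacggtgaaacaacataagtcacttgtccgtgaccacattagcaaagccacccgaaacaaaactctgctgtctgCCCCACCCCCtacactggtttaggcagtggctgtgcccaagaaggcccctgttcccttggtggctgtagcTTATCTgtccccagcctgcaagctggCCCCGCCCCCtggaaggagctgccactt
Hbb-bs: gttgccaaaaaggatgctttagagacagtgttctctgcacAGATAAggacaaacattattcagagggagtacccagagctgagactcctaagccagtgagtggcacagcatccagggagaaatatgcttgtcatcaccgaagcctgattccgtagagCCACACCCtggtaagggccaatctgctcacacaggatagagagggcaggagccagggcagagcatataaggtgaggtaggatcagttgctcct
Hbb-bt: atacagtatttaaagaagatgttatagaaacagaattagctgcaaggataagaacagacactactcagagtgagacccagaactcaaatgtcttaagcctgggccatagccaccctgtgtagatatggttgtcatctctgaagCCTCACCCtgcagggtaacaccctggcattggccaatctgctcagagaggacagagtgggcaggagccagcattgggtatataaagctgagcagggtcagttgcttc
Hba-a1: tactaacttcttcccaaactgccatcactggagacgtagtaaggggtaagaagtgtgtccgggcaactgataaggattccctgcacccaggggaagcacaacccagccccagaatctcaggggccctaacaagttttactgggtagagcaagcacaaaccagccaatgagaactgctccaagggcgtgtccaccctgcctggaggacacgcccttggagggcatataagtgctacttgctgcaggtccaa
A match is a description of the letters and says nothing of binding. Variants of AGATAA were not searched, such as TGATAA, which the Hba-a1 sequence holds in lower case. The promoters of Hba-a1 and Hba-a2 shared an unbroken run of 297 of 300 bases, whereas the longest run shared by Hbb-bs and Hbb-bt was 14 bases.

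The libraries held 26642067 to 42679114 counts on genes, and the 35 members took 0.184% to 1.01% of them. Uniquely aligned reads that HTSeq assigned to no gene were 42.0% and 38.8% in the libraries labelled sick KD and 26.9% to 33.8% in the other 6. Where these reads lie was not traced. Alignments that were not unique numbered 1.69 and 1.87 for each count on a gene in sick KD and 1.06 to 1.14 in the other 6. Both values move with the results below, and their part in them was not tested. Counts on mouse Gfi1 were at 5.43 and 7.08 CPM (counts scaled to a common library total) in sick KD, 6.20 and 7.01 CPM in young KD, 14.2 and 14.4 CPM in young KO and 13.2 and 29.9 CPM in old KO. They were higher in the KO libraries, and since the KD allele holds human GFI1 and the deleted part of the KO allele was not traced, they do not check the labels. CPM values are normalized by TMM, the trimmed mean of M-values, throughout. The 4 adult globins summed to 581 and 892 CPM in sick KD and to 1246 to 4119 CPM in the other 6 libraries, so the libraries do contain erythroid RNA. In RNA from whole BM, fewer erythroid cells and less of this RNA in each cell cannot be told apart. The study reports no anemia in sick KD mice, though it also mentions a decrease of red blood cells. For KD and KO marrow it describes a tendency to more erythroid progenitors, without stating whether those mice were sick.

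The members were lower in sick KD than in young KD mice. Of 35, 32 were called lower and 0 higher by edgeR's quasi-likelihood test at an adjusted p under 0.05, where 11.4% of 14656 genes tested were called lower and 9.45% higher. No member had a higher value at an unadjusted p under 0.05 either, and 30 were called lower by DESeq2. The median log2 fold change was -1.80 over the members and 0.01 over all genes tested, and the members ranged from -2.18 for Cldn13 to 0.04 for Nfe2. In 34 of 35 members both sick KD libraries lay below all 6 others, as did those of 24.7% of the 15102 genes tested in all 8 mice. The exception was Nfe2. In each of 11 alternative settings 13 members stayed called, namely Gata1, Klf1, Epor, Cpox, Ank1, Sptb, Ermap, Rhag, Rhd, Kel, Aqp1, Car1 and Car2. Without sick KD mouse 1, whose values were the lower for most members, only those 13 remained of the 32.

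**Figure D1:**
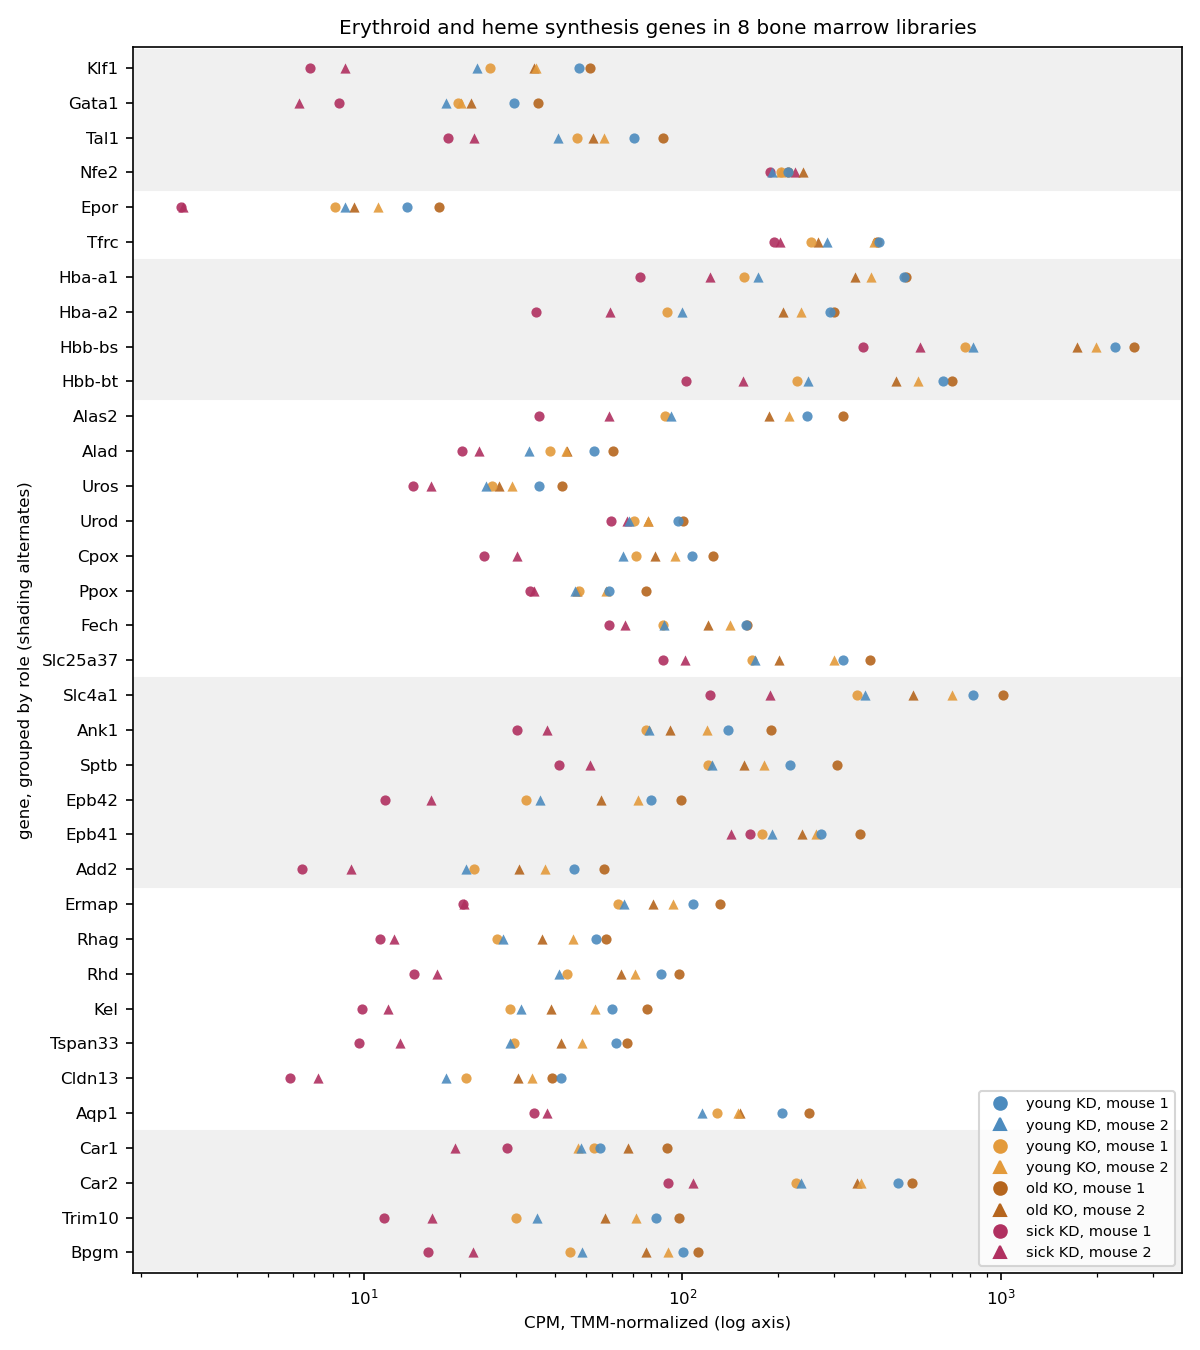
Level of each of the 35 members in each of the 8 libraries, in CPM on a log axis, with colours for groups, circles for mouse 1 and triangles for mouse 2 of a group, and alternating shading for roles. The sick KD points lie to the left of the other 6 in every row except that of Nfe2.

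Transcription factors divided into 3 that fell and 1 that did not. Klf1, the activator of adult globin and membrane genes, stood at 6.79 and 8.74 CPM in sick KD, 47.6 and 22.7 CPM in young KD, 25.0 and 34.7 CPM in young KO and 51.3 and 34.2 CPM in old KO. Both sick KD values lay under a group whose own mice differed 2.10-fold, and the fitted change was 4.49-fold lower than in young KD (log2 -2.17, SE 0.35, edgeR adjusted p = 0.013). Gata1, which drives erythroid and megakaryocyte differentiation, was at 8.39 and 6.27 CPM in sick KD, 29.7 and 18.1 CPM in young KD, 19.8 and 20.3 CPM in young KO and 35.2 and 21.7 CPM in old KO. It fell 3.25-fold between young and sick KD mice (log2 -1.70, SE 0.27, edgeR adjusted p = 0.0124). Tal1, a partner of Gata1, had 18.4 and 22.2 CPM in sick KD, 70.7 and 40.6 CPM in young KD, 46.9 and 56.9 CPM in young KO and 86.6 and 52.3 CPM in old KO, and its log2 change from young KD was -1.44. Nfe2, a subunit of the NF-E2 factor that is also used by megakaryocytes and other blood cells, was at 189 and 226 CPM in sick KD and between 191 and 239 CPM in the other 6 libraries. The groups overlapped, and its log2 change of 0.04 had an SE of 0.13.

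The receptors differed in the size of their change. Epor, the erythropoietin receptor, had 2.68 and 2.71 CPM in sick KD, 13.7 and 8.72 CPM in young KD, 8.16 and 11.1 CPM in young KO and 17.3 and 9.33 CPM in old KO. The sick KD values rest on 67 and 77 counts, the fewest of any member, and the others on 290 to 548. It fell 4.12-fold between young and sick KD mice (log2 -2.04, SE 0.27, edgeR adjusted p = 0.00788), and the lowest of the other 6 libraries was 3.01 times the higher sick KD library. Tfrc, the transferrin receptor that brings iron into dividing cells of every kind and in large amounts into erythroid ones, was at 194 and 202 CPM in sick KD, 413 and 284 CPM in young KD, 253 and 398 CPM in young KO and 407 and 267 CPM in old KO. It fell by 0.80 on the log2 scale (SE 0.18, edgeR adjusted p = 0.0291). As a ratio of levels per kilobase within a library, Tfrc to Epor was 23.3 and 23.9 in sick KD and 7.60 to 11.5 in the other 6, which did not overlap.

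The 4 adult globins fell, but in sick KD and both young groups they also varied more between the mice of a group than the median member. Hbb-bs, an adult beta chain gene at chromosome 7, 103826534 to 103828096 of GRCm38, was at 369 and 556 CPM in sick KD, 2279 and 818 CPM in young KD, 772 and 1985 CPM in young KO and 2617 and 1728 CPM in old KO. One mouse of each young group thus stood close to the higher sick KD mouse. Its change from young to sick KD was -1.73 (log2, SE 0.46, edgeR adjusted p = 0.0433). Hbb-bt, its neighbour and also an adult beta chain gene, was at 103 and 155 CPM in sick KD against 655 and 247 CPM in young KD, a log2 change of -1.80. For the alpha chain genes, Hba-a1 was at 73.7 and 122 CPM in sick KD and 496 and 173 CPM in young KD, and Hba-a2 at 34.7 and 59.1 CPM against 290 and 99.6 CPM. The adjusted p of the 4 genes lay between 0.0349 and 0.0479 (edgeR), and all 4 lost the call when either sick KD mouse was left out, with Hba-a1 and Hbb-bs also losing it in DESeq2. Of the 11 alternative settings, Hbb-bs kept its call in 6, Hba-a1 in 8, and Hba-a2 and Hbb-bt in 9 each. Between the young KD mice the globins differed 2.65-fold to 2.91-fold, where the median member differed 1.89-fold. The lowest other library exceeded the higher sick KD library by only 1.28 to 1.51 times.

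The ratio of globin chains changed little while the globin level did. Per kilobase, the beta chain genes summed to 3.73 to 4.40 times the alpha chain genes over all 8 libraries, with 4.40 and 3.96 in sick KD. Hbb-bs stood at 3.03 to 3.43 times Hbb-bt over all 8. Hba-a1 to Hba-a2 was 1.74 and 1.69 in sick KD and 1.36 to 1.44 in the other 6. The near-identical copies limit this, since 56.5% of 100-base stretches of the Hba-a1 transcript are also in Hba-a2 and 62.6% of those of Hbb-bs are in Hbb-bt. Reads aligned to both copies enter the tally of alignments that were not unique and are counted on neither gene. That tally was higher in sick KD, and its part in these ratios was not tested. Of 6 minor and embryonic globins only Hbq1b had enough counts to be tested between sick and young KD, with 0.200 and 0.493 CPM in sick KD and 2.07 and 0.812 CPM in young KD. Hbb-bh2, an embryonic type gene, had no counts in any library.

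**Figure D2:**
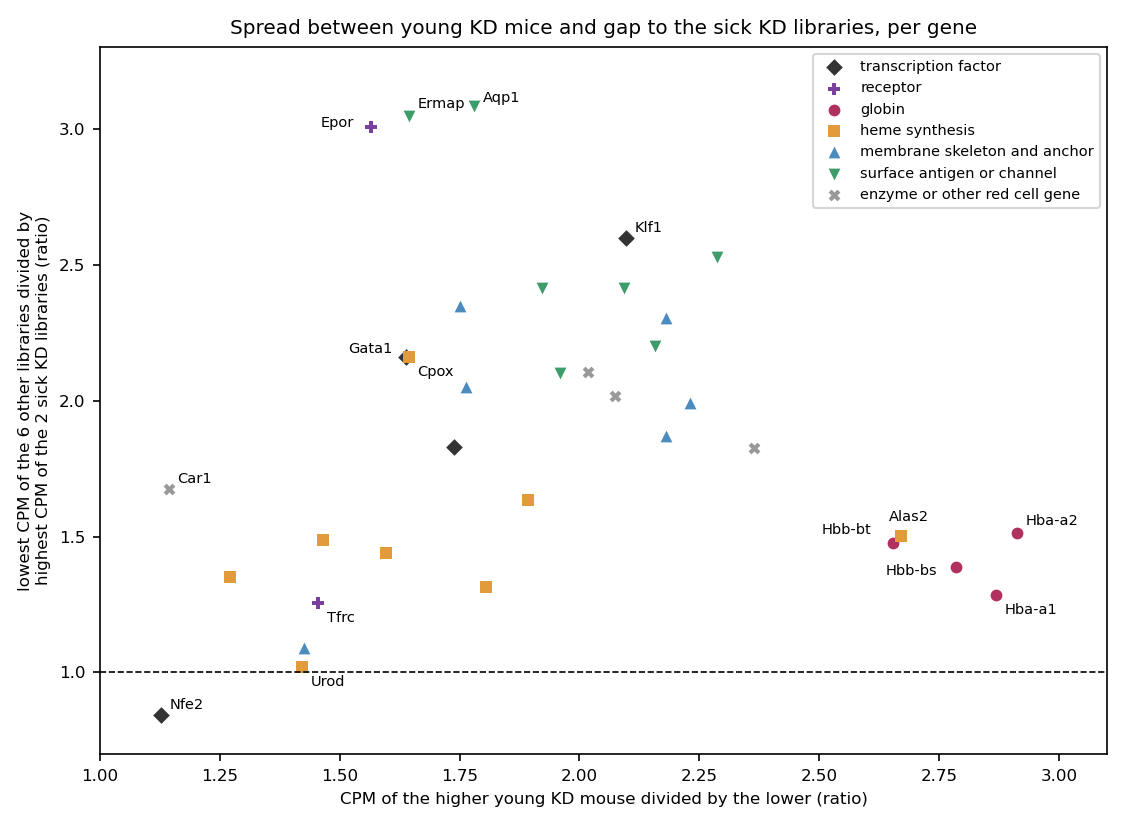
Ratio of the lowest of the 6 other libraries to the higher sick KD library (vertical axis) against the ratio of the higher to the lower young KD mouse (horizontal axis), with 1 point per member and symbols for roles. The globins and Alas2 lie to the right with gaps of 1.28 to 1.51, Epor, Ermap and Aqp1 lie at the top with gaps above 3, and Nfe2 at 0.843 is below the dashed line at 1, where the groups would touch.

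Heme synthesis fell unevenly along the pathway. Of its 8 members 7 were called lower in sick KD, with a median log2 change of -0.97. Alas2, the erythroid enzyme of the first and rate-limiting step, was at 35.4 and 58.7 CPM in sick KD, 247 and 92.4 CPM in young KD, 88.3 and 215 CPM in young KO and 319 and 188 CPM in old KO. It fell 3.57-fold (log2 -1.84, SE 0.46, edgeR adjusted p = 0.0372), was not called in DESeq2, and lost its call without either sick KD mouse. Cpox, which oxidizes coproporphyrinogen, was at 23.8 and 30.2 CPM in sick KD and 107 and 65.2 CPM in young KD, with a log2 change of -1.67 (SE 0.25, edgeR adjusted p = 0.0108). Slc25a37, the mitochondrial iron importer, changed by -1.36. The remaining enzymes had smaller changes, with -0.98 for Alad, -0.95 for Uros, -0.97 for Fech and -0.63 for Ppox. Urod, which decarboxylates uroporphyrinogen, was at 59.7 and 66.9 CPM in sick KD and 96.9 and 68.2 CPM in young KD, and its change of -0.37 did not pass the test (edgeR adjusted p = 0.174).

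Further genes of heme synthesis and iron handling, from a list written with earlier results of these data known, did not move as one. Of 22 tested, 6 were called lower and 3 higher in sick KD, with a median of -0.20, where 11.4% and 9.45% of all genes were called lower and higher. Blvrb, biliverdin reductase B, had the largest fall at -1.10 (log2, SE 0.21) and the heme-related mitochondrial transporter Abcb10 the next at -0.93. Alas1, Ncoa4 and Pcbp1 were the 3 called higher and were named after their values were seen. Alas1, the form of the first enzyme outside the erythroid lineage, was at 191 and 243 CPM in sick KD and 119 and 146 CPM in young KD, a log2 change of 0.72 (SE 0.16, edgeR adjusted p = 0.0289). Ncoa4, the receptor that carries ferritin to lysosomes, was at 152 and 137 CPM in sick KD against 85.1 and 76.5 CPM in young KD. The ratio of Alas2 to Alas1 per kilobase of exon was 0.476 and 0.621 in sick KD and 1.43 to 6.59 in the other 6 libraries. Per kilobase, Alas1 thus exceeded Alas2 in the sick KD libraries alone, which depends on the exon lengths used. By CPM, Alas1 also exceeded Alas2 in young KD mouse 2, at 146 against 92.4, and in young KO mouse 1, where Alas2 was at 88.3.

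Of the 6 genes of the membrane skeleton and its anchors, 5 were called lower in sick KD. Slc4a1, the anion exchanger band 3 that anchors the skeleton, was at 122 and 189 CPM in sick KD, 814 and 373 CPM in young KD, 353 and 703 CPM in young KO and 1011 and 529 CPM in old KO. Its log2 change from young KD was -1.92 (SE 0.38, edgeR adjusted p = 0.0205). Sptb, the beta chain of erythroid spectrin, was at 41.1 and 51.2 CPM against 217 and 124 CPM (log2 -1.88). Ank1, the ankyrin that ties band 3 to spectrin, changed by -1.67, Epb42, protein 4.2, by -2.03, and Add2, beta adducin, by -2.10. Epb41, protein 4.1, was at 163 and 142 CPM in sick KD and 272 and 191 CPM in young KD, and its change of -0.59 did not pass the test (edgeR adjusted p = 0.0636).

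All 7 surface antigens and channels were called lower, with a median log2 change of -2.05. The lowest other library was 2.10 to 3.08 times the higher sick KD library, and the median of 2.41 was the largest of any role. Aqp1, the water channel, was at 34.2 and 37.5 CPM in sick KD, 206 and 116 CPM in young KD, 129 and 149 CPM in young KO and 249 and 151 CPM in old KO. Its fall was 4.45-fold (log2 -2.15, SE 0.26, edgeR adjusted p = 0.00663). Ermap, the Scianna blood group antigen, was at 20.5 and 20.7 CPM in sick KD, 108 and 65.5 CPM in young KD, 63.0 and 93.7 CPM in young KO and 132 and 80.8 CPM in old KO (log2 -2.06, SE 0.23, edgeR adjusted p = 0.00568). For both genes the lowest other library was about 3 times the higher sick KD library, at 3.08 and 3.04. The Rh complex genes Rhag and Rhd changed by -1.77 and -2.00, the Kell antigen gene Kel by -2.05, the tetraspanin Tspan33 by -1.98 and the tight junction family gene Cldn13 by -2.18.

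Of the 4 enzymes and other red cell genes, 4 were called lower. Car2, the main carbonic anhydrase of high activity, was at 90.3 and 108 CPM in sick KD against 476 and 236 CPM in young KD (log2 -1.83). Bpgm, which makes the bisphosphoglycerate that lowers the oxygen affinity of hemoglobin, changed by -1.96, and Trim10, a RING finger protein of the erythroid lineage, by -2.06. Car1, the abundant carbonic anhydrase of red cells, differed 1.14-fold between the young KD mice, 1.12-fold between the young KO mice and 1.46-fold between the sick KD mice, with 28.2 and 19.3 CPM in sick KD, 55.1 and 48.2 CPM in young KD, 53.0 and 47.2 CPM in young KO and 89.5 and 67.5 CPM in old KO (log2 -1.11, SE 0.19, edgeR adjusted p = 0.0147).

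Other red cell lists gave the following counts for sick against young KD, beside 20.9% called over all genes. Of 14 other erythroid regulators 8 were lower and 0 higher, led by Zfpm1, the Gata1 cofactor FOG1, at -1.73 and Hemgn, hemogen, at -1.73. Of 17 other membrane and surface genes 10 were lower and 2 higher, and Tmcc2 was among the lower at -1.96. Of 14 genes of red cell enzymes and terminal maturation 7 were lower and 0 higher, led by Ypel4 at -2.63 and Pklr, the red cell pyruvate kinase, at -2.62. Of 8 genes of the erythropoietin response 1 was lower and 1 higher. Bcl2l1, which encodes the survival factor BCL-XL, was at 24.5 and 25.1 CPM in sick KD and 55.9 and 49.3 CPM in young KD, whereas Socs3, a feedback inhibitor of cytokine signaling, was at 43.0 and 56.1 CPM against 22.2 and 27.0 CPM.

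In old KO mice the members stood above those of the sick KD mice. Of 35 members 33 were called higher and 0 lower by edgeR, where 9.93% of 14470 genes tested were called higher and 8.22% lower, and 34 were called higher by DESeq2. The median log2 fold change was 2.17 over the members and -0.00 over all genes. This comparison uses the same sick KD mice as the one with young KD, so the 2 are not independent. Log2 fold changes ran from 0.11 for Nfe2 to 2.48 for Add2, and Urod at 0.48 did not pass the test (edgeR adjusted p = 0.0695). Here the globins had smaller errors, with Hbb-bs at 2.22 (log2, SE 0.28, edgeR adjusted p = 0.00566) and Hba-a2 at 2.42 (SE 0.29, adjusted p = 0.00531), and the old KO mice differed by only 1.44-fold to 1.51-fold in them. Alas2 was at 2.41, Klf1 at 2.44, Epor at 2.29, Aqp1 at 2.47 and Cldn13 at 2.40. In each of 11 alternative settings 28 members stayed called, and those that did not were Tfrc, Uros, Ppox, Slc25a37 and Epb41. Further lists gave 9 of 14 regulators, 10 of 17 membrane genes and 9 of 14 enzyme and maturation genes higher in old KO, with 0 lower in each, and 6 higher and 4 lower of 22 heme and iron genes.

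In young mice no difference between KO and KD was detected in these genes with 2 mice a group. Of 35 members 0 were called in young KO against young KD by edgeR or DESeq2, where 0.0404% of 14839 genes were called (0.0202% in each direction), and 0 had an unadjusted p under 0.05. All 35 members overlapped between the groups, where 15.8% of genes lay higher and 11.4% lower without overlap. The median was -0.17, and Hbb-bs at -0.17 had an SE of 0.58, Klf1 at -0.25 an SE of 0.34 and Gata1 at -0.27 an SE of 0.22. The spread between mice was large enough to set the sign, since the median became 0.37 without young KD mouse 1 and 0.15 without young KO mouse 1.

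No member passed the test between old and young KO mice, although all 35 values lay above 0 in the reported fit. Most members had the same order between the mice of a group, so this shared sign is not 35 separate observations. Some members changed sign in an alternative setting, with lowest log2 changes of -0.29 for Tfrc and -0.22 for Slc25a37. The median over all genes was -0.00, and the share of all genes above 0 was not counted. Of 35 members 0 were called by edgeR, where 0.929% of 14847 genes were called (0.323% higher and 0.606% lower), and 1, Car1, had an unadjusted p under 0.05 and was called by DESeq2. All 35 had a log2 change above 0, with a median of 0.50, and 6 did not overlap between the groups (Car1, Gata1, Aqp1, Alad, Urod and Nfe2), where 17.8% of genes lay apart in that direction. Car1 was at 89.5 and 67.5 CPM in old KO and 53.0 and 47.2 CPM in young KO (log2 0.65, SE 0.15, edgeR adjusted p = 0.191). Without old KO mouse 2, the member count became 3, and the genes were Car1, Gata1 and Aqp1.

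**Figure D3:**
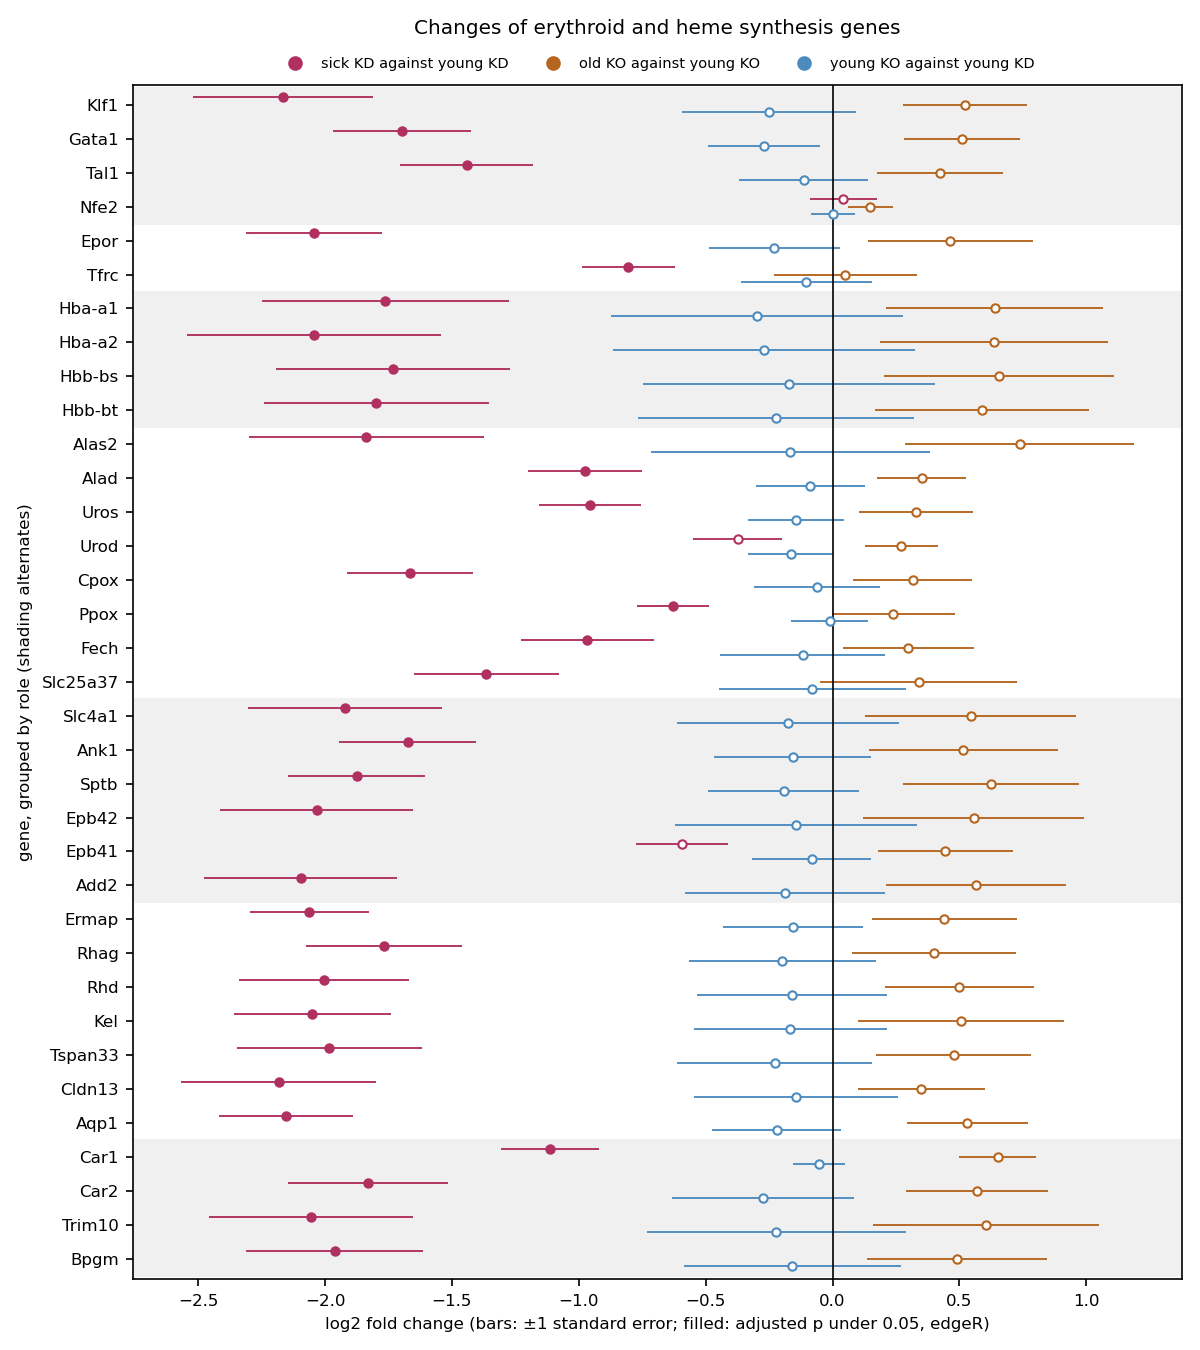
Log2 fold change of each member with bars of 1 standard error in the 3 comparisons of the legend, with filled points for an adjusted p under 0.05 in edgeR. Sick against young KD lies to the left of 0 with 32 filled points, while no point is filled for old against young KO (0.05 to 0.74) or for young KO against young KD (-0.30 to 0.00).

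The change in the KO-to-KD difference from young mice to old KO and sick KD mice was tested in 1 fit of all 8 mice, as an interaction. For 18 of 35 members it was called higher and for 0 lower by edgeR, where 7.43% of 15102 genes were called (4.32% higher and 3.11% lower), and for 24 by DESeq2. The median was 2.40 over the members and 0.00 over all genes, and 33 had an unadjusted p under 0.05. All 7 surface antigens and channels were called, as were Klf1 at 2.68, Gata1 at 2.20 and Epor at 2.50. None of the 4 globins was called, although their values of 2.38 to 2.68 were as large, with adjusted p from 0.0786 to 0.0939 (edgeR) and SEs of 0.73 to 0.81. The count depended on single mice, while the direction of the called members did not change. It was 1 without sick KD mouse 1, 8 without sick KD mouse 2, 2 without old KO mouse 1, 0 without young KO mouse 1, 1 without young KO mouse 2, 1 without young KD mouse 1, 18 without old KO mouse 2 and 24 without young KD mouse 2. Over 14 alternatives Aqp1 ranged from 2.21 to 3.03 and Klf1 from 2.06 to 3.12.

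Within each group most members had the same order between the 2 mice, and the share of all genes with that order was not counted. Young KD mouse 1 was above mouse 2 in 35 of 35 members, young KO mouse 2 above mouse 1 in 34, all except Car1, old KO mouse 1 above mouse 2 in 34, all except Nfe2, and sick KD mouse 2 above mouse 1 in 32, all except Gata1, Epb41 and Car1. Summed over the members, the level was 8483 and 4006 CPM in young KD, 3876 and 7286 CPM in young KO, 9767 and 6261 CPM in old KO and 1959 and 2488 CPM in sick KD. The mice of a young group thus differed by more than the lower of them differed from the higher sick KD mouse. The globins, Alas2 and Trim10 split the mice of both young groups most. Trim10 differed 2.39-fold between the young KO mice and Gata1 1.02-fold, and the ratio of Hbb-bs to Klf1 per kilobase was 61.6 and 114 in young KO, 95.4 and 71.8 in young KD, 102 and 101 in old KO and 108 and 127 in sick KD. One sick KD ratio lay within the range of the other libraries and the other above it, although both genes were low there.

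Markers of other BM cells were summed in the same way, and their calls stand beside 11.4% of all genes called lower and 9.45% higher in sick against young KD, and 9.93% higher and 8.22% lower in old KO against sick KD. Macrophage markers, which include those of the macrophages that nurse erythroblasts, were at 262 and 229 CPM in sick KD, 302 and 365 CPM in young KD, 415 and 375 CPM in young KO and 546 and 450 CPM in old KO. Of these 11 markers 9 were called lower in sick than in young KD and 9 higher in old KO than in sick KD. Cd163, a hemoglobin scavenger receptor, was at 1.64 and 3.24 CPM in sick KD and 6.53 to 26.9 CPM in the other 6, whereas Adgre1, the pan-macrophage marker F4/80, was at 183 and 159 CPM in sick KD and 126 to 207 CPM in the others. B cell markers fell as well, from 764 and 619 CPM in young KD to 37.3 and 89.4 CPM in sick KD with 9 of 9 called lower, and from 531 and 653 CPM in young KO to 124 and 179 CPM in old KO with 9 of 9 called lower, where 0.606% of all genes were called lower. In the old KO mice the members were thus not called lower while the B cell markers were. Neutrophil markers summed to 9555 and 7533 CPM in sick KD and 4117 to 5480 CPM in the other 6, with 4 of 13 called higher and 1 lower against young KD. Monocyte markers summed to 10126 and 9638 CPM in sick KD and 6593 to 8970 CPM in the other 6, but did not move as one. Of these 9 markers 3 were called higher and 1, Cx3cr1, lower in sick than in young KD. In old KO against sick KD 2 were called higher and 1 lower. In sick against young KD, 6 of 10 stromal and endothelial markers and 3 of 9 T cell and NK cell markers were called lower, and 0 of either were called higher. CPM remain relative levels after TMM, so a larger share for one cell type can lower the others. The part of these cell types in the erythroid result was not tested.

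Megakaryocytes share Gata1, Tal1 and Nfe2 with the erythroid lineage. Between sick KD and either young KD or old KO, most of their markers lay on the same side as the erythroid members without passing the test. Their sums were 196 and 501 CPM in young KD, 549 and 128 CPM in young KO, 407 and 255 CPM in old KO and 289 and 151 CPM in sick KD. In both young groups and in sick KD the mouse with the higher erythroid sum had the lower megakaryocyte sum, and in old KO the same mouse was higher in both. Of 13 megakaryocyte and platelet markers 0 were called in any of the 5 comparisons by edgeR, and 0 had an unadjusted p under 0.05. In sick against young KD all 13 had a log2 change below 0, with a median of -0.91 and overlapping groups, and in old KO against sick KD 12 of 13 were above 0, with a median of 0.63. In old against young KO 8 of 13 were below 0, with a median of -0.06, where all 35 erythroid members were above 0.

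**Figure D4:**
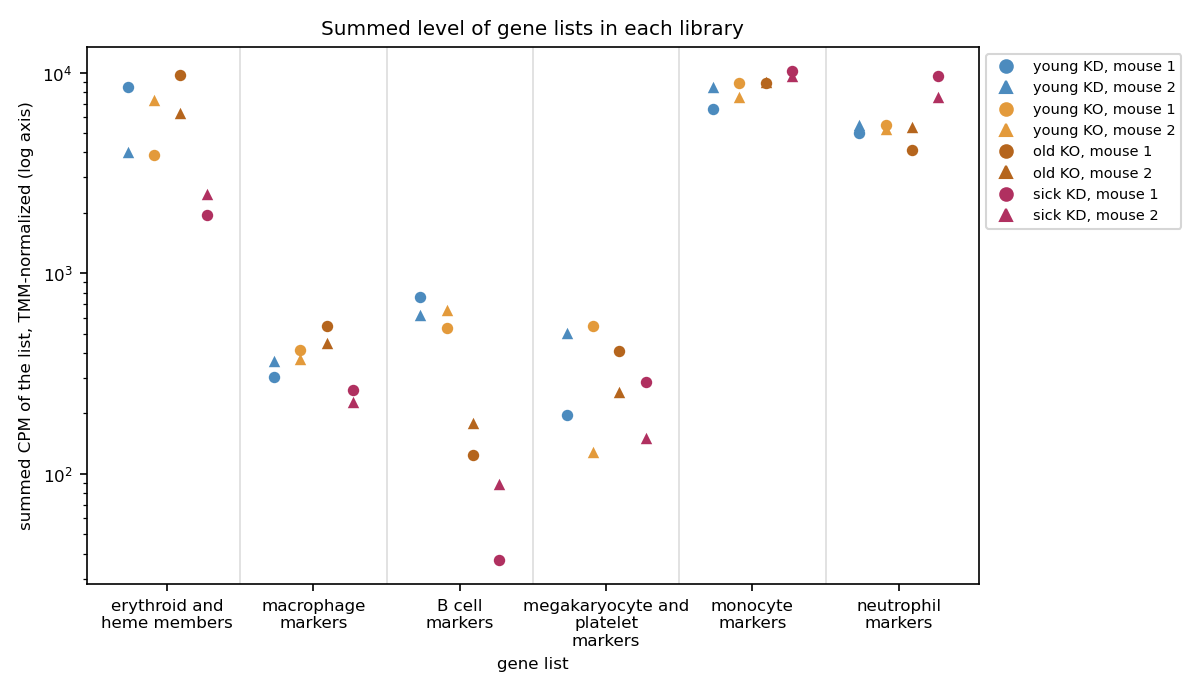
Summed CPM (log axis) of 6 gene lists in each library, with colours for groups, circles for mouse 1 and triangles for mouse 2. The erythroid members are lowest in the sick KD libraries at 1959 and 2488 CPM, the macrophage and B cell sums are also lowest there, and the neutrophil and monocyte sums are highest there.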

How the data were processed

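Whole BM of 8 mice was profiled with a stranded poly(A) kit. The authors aligned reads to mm10 with TopHat2 2.0.10, processed them with SAMtools, counted them on Ensembl genes with HTSeq and tested them with DESeq. The deposited files hold raw counts per gene of each mouse, without normalization, plus 5 HTSeq tallies that were left out of library sizes (reads assigned to no gene were 26.9% to 42.0% of unique reads). The strand setting and Ensembl release are not given in the sources used here. Symbols came from GENCODE M21 on GRCm38, which named 40340 of 41214 identifiers.

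Tests used edgeR 4.0.16 (R 4.3.3) on the deposited counts, with TMM, filterByExpr by group, the quasi-likelihood test and a Benjamini-Hochberg adjusted p under 0.05 over all genes tested. Each comparison was fitted on its own 4 mice, and the interaction on all 8. Each SE is the absolute log2 fold change over the square root of F. No batch is given in the labels, and with 2 mice a group an exact permutation test cannot go below 0.333, so none was used. With 2 mice, the spread between mice limits precision more than counting does. All 35 members passed the filter in every comparison. Members and lists were chosen with earlier results of these data known. Named genes are all members, and in other lists the 2 largest called changes plus defining markers, beside genes said to be named after their values were seen. A gene that this rule selects is not reported here. Alternatives were DESeq2 1.42.0 (size factors, Wald test), TMM without the members, other count filters, all 8 mice in 1 fit, leaving out each mouse and, chosen after the data were seen, removal of trends in GC content, length and gene span.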

Additional observations from a re-analysis of the deposited data

Results flagged for a closer look

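For 18 members the difference between KO and KD mice changed from the young pair to the pair of old KO and sick KD mice, by edgeR's test of that change in all 8 mice, where 4.32% of all genes were called in that direction. None of the 18 kept its call in every one of 14 alternatives, and leaving out 1 mouse gave 0 to 24 calls. The values are changes on the log2 scale, and all are higher in old KO relative to sick KD. Among transcription factors and receptors they were 2.68 for Klf1, 2.20 for Gata1, 1.86 for Tal1 and 2.50 for Epor. In heme synthesis and the membrane skeleton they were 1.32 for Alad, 1.98 for Cpox, 2.50 for Sptb and 2.66 for Add2. The surface antigens and channels had 2.50 for Ermap, 2.16 for Rhag, 2.50 for Rhd, 2.55 for Kel, 2.46 for Tspan33, 2.53 for Cldn13 and 2.68 for Aqp1. The enzymes had 1.76 for Car1, 2.40 for Car2 and 2.45 for Bpgm. Standard errors ran from 0.28 to 0.62 and adjusted p from 0.016 to 0.048. Aqp1, Car1 and Ermap had the lowest adjusted p, at 0.016, 0.0163 and 0.0218.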

How the results depend on the processing

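Against the reported 32 members lower in sick than in young KD, leaving out 1 mouse gave 13 to 34, the lowest without sick KD mouse 1, and the other settings gave 28 to 33. Against 33 higher in old KO than in sick KD, leaving out 1 mouse gave 28 to 34 and the other settings 32 to 34. Old against young KO, with 0 called, gave 1 higher with DESeq2, 9 when every gene with at least 1 count was tested and 0 to 3 when 1 mouse was left out. The interaction, with 18 higher, gave 34 when every gene with at least 1 count was tested, 24 with DESeq2, 0 to 24 when 1 mouse was left out and 18 or 19 in the other settings. The causes of these differences were not tested. No member changed direction where it was called. Removal of trends in GC content, length and gene span shifted the median of all genes by about 0.10 or less and gave 30, 32 and 18 members in the first, second and last of these. A mouse left out leaves its group with 1 mouse, which is then assumed to vary like the others. Depth was not limiting for most members, since the lowest count was 67, for Epor. No paired analysis was possible because each mouse has its own number in the labels and the groups have none in common.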
